A study of Mus musculus with 6 samples.

Results

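The serotonin, adrenergic and acetylcholine receptor genes were described in visual cortex RNA of C57BL/6J males aged 14 days (P14). The members are the gene rows whose symbols name a serotonin receptor (*Htr*), an adrenergic receptor (*Adra*, *Adrb*), a muscarinic acetylcholine receptor (*Chrm*) or a nicotinic acetylcholine receptor subunit (*Chrn*). A serotonin receptor gene that the name patterns also match was left out by the rule. There were 43 members among 24453 gene rows: 13 serotonin, 6 alpha adrenergic, 3 beta adrenergic, 5 muscarinic and 16 nicotinic genes. The series compared knockouts of *Chrdl1* (KO), which encodes a secreted antagonist of bone morphogenetic proteins, with wild type (WT), 3 libraries of each. Mice of both genotypes underwent perfusion with 4% paraformaldehyde. The labels do not say whether the deletion is present in every cell, or whether each library comes from its own animal, so p-values rest on library-to-library spread, which may be technical. The middle number of each library title (1, 2 or 3) occurs once in each genotype and is used as the replicate number.

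Serotonin, noradrenaline and acetylcholine reach the cortex mostly through axons of neurons whose cell bodies lie in the brainstem and basal forebrain, and the receptors on cortical cells set how those cells respond. Most of these receptors act through G proteins. The receptors encoded by *Htr2a*, *Htr2c*, *Adra1a*, *Adra1b*, *Adra1d*, *Chrm1*, *Chrm3* and *Chrm5* couple mainly to Gq and phospholipase C. Those encoded by *Htr1a*, *Htr1b*, *Adra2a*, *Adra2c*, *Chrm2* and *Chrm4* couple to Gi and lower cyclic AMP, and those encoded by *Htr4*, *Htr6*, *Htr7* and *Adrb1* couple to Gs and raise it. Nicotinic receptors are ion channels of several subunits, of which the combination of *Chrna4* with *Chrnb2* and the receptor of *Chrna7* are the main brain forms, while *Chrna1*, *Chrnb1*, *Chrnd*, *Chrne* and *Chrng* encode the subunits of skeletal muscle.

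Values are FPKM (fragments per kilobase of exon, scaled to the mapped reads of the library), which allow levels to be compared between genes. Estimated depth was 27.5 to 38.2 megareads in WT and 22.7 to 31.9 megareads in KO. In WT, replicates 1, 2 and 3 held *Chrdl1* at 3.65, 3.57 and 3.09 FPKM, and in KO at 0.172, 0.19 and 0.12, which goes with the labels. The 10 markers of cortical excitatory neurons summed to 1083 to 1303 FPKM per library, as the labelled tissue should hold. The 10 markers of striatal neurons did not sum alike: the sum was 267 to 316 FPKM in the 3 WT libraries and 312 in KO replicate 2, against 131 and 135 in KO replicates 1 and 3. *Ttr*, a choroid plexus gene, stood at 150 FPKM in WT replicate 1 and 310 in KO replicate 3, and at 2.88 to 5.46 in the other 4 libraries. The 6 skeletal muscle markers summed to 5.50 to 7.83 FPKM. In bulk tissue, fewer cells of a type and less RNA per cell cannot be told apart.

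The receptor genes spanned a wide range of levels. Of 43 members, 7 had a mean of 10 FPKM or more, 23 reached 1 FPKM and entered the test, 13 lay between 0.1 and 1 FPKM, and 7 were below 0.1. The highest was *Chrm1*, with WT at 37.2 ± 1.98 FPKM and KO at 38.2 ± 2.12 (SD, n = 3 per genotype, as for each mean below), above 92.6% of all gene rows. It was followed by *Chrm4* (mean over 6 libraries 16.2 FPKM), *Chrm3* (13.3), *Htr2c* (13.2), *Chrna4* (12.3), *Chrnb2* (11.4) and *Adra1d* (10.9). The median of the 23 tested members was 4.82 FPKM, against 9.43 over all 12863 tested genes. Levels depend on the gene models: those of *Htr1b* (1159 bp) and *Htr6* (1357 bp) hold little beyond the coding sequence (1158 and 1320 bp in GENCODE M21), so reads from untranslated exons outside those models were not counted.

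**Figure D1:**
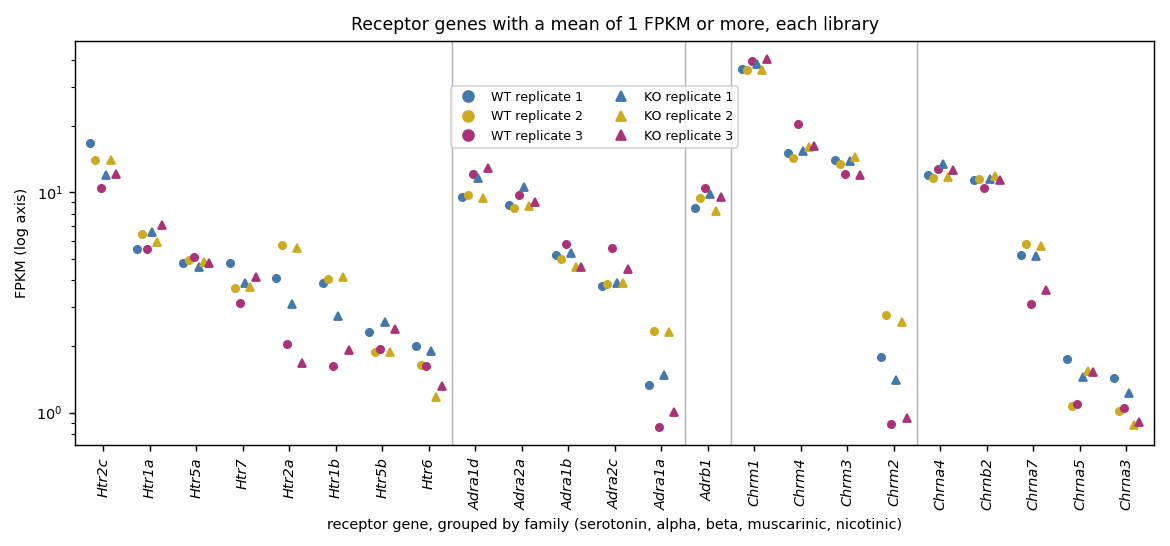
FPKM on a log axis of the 23 receptor genes averaging at least 1 FPKM, grouped by family. Circles are WT and triangles KO libraries, and colours are the title numbers. *Chrm1* lies highest, near 37.7 FPKM, and for *Htr2a*, *Htr1b*, *Adra1a*, *Chrm2* and *Chrna7* the colours separate while the shapes do not.

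No receptor gene differed between KO and WT in the test. Over all genes, limma on log2(FPKM + 1) with Benjamini-Hochberg adjustment called 1 of 12863 (0.00777%), *Chrdl1* itself, and 0 of the 23 tested members. In that fit 0 members had an unadjusted p under 0.05, where only 81 of the 12863 genes had one. With the title number as a replicate block the calls were again 1 gene (0.00777%) and 0 members, and 1 member (4.35%), *Htr2a*, had an unadjusted p under 0.05, as did 3.91% of all tested genes. Limma-voom on reads recovered from the FPKM values also called 0 members. Of the 23 estimates, 12 were higher and 11 lower in KO, with a median of 0.02 against 0.01 over all tested genes. The KO and WT values overlapped for each of the 23, where 2.95% of all tested genes had no overlap. For 19 of the 23 the 95% interval of the difference stayed inside a 1.5-fold change either way, and for 23 of 23 with the block, on a scale that understates changes of genes near 1 FPKM. The 4 wider ones were *Htr2a*, *Htr1b*, *Chrm2* and *Adra1a*.

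**Figure D2:**
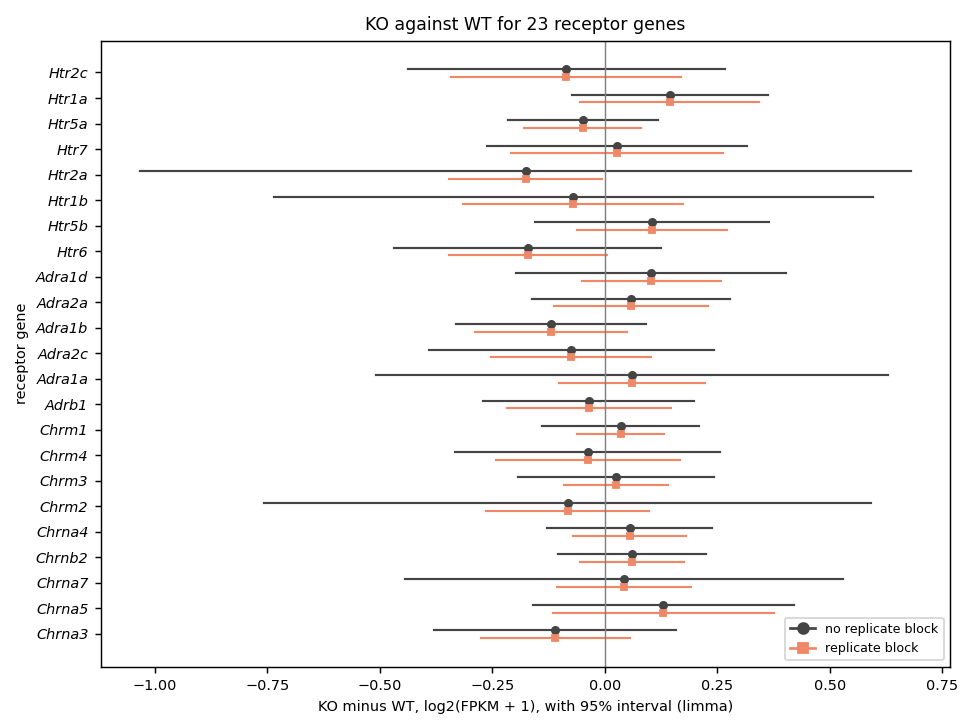
KO minus WT on the log2(FPKM + 1) scale for the 23 tested receptor genes, with the limma estimate and its 95% interval without (dark circles) and with (orange squares) the title number as a block. The intervals without the block all span 0 and are widest for *Htr2a* (-1.03 to 0.68), and with the block that of *Htr2a* runs from -0.35 to -0.01.

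Among the serotonin receptors coupled to Gq, *Htr2c* was the most abundant. In replicates 1, 2 and 3 it stood at 16.7, 14.0 and 10.5 FPKM for WT and at 12.0, 14.0 and 12.1 for KO. The highest and the lowest value were both WT, so the groups overlapped, and KO minus WT was -0.09 (SE 0.15, limma adjusted p = 1). *Htr2c* is also a gene of the choroid plexus, and *Ttr* was high in WT replicate 1 and KO replicate 3. In each of these pairs *Htr2c* was higher in the library with high *Ttr* (16.7 against 12.0 FPKM, and 12.1 against 10.5). Across pairs, KO replicate 3 (12.1) stood near KO replicate 1 (12.0) and below the libraries numbered 2 (14.0), where *Ttr* was low. Without WT replicate 1 the difference was 0.06, without WT replicate 3 it was -0.25 and without KO replicate 3 it was -0.06, and none of these was called. The part of the choroid plexus in these values was not tested.

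*Htr2a* encodes the other abundant Gq-coupled serotonin receptor, a target of classical hallucinogens. Its row (NM_172812) lies on the plus strand of chromosome 14 in mm10, from 74640840 to 74706859, with 2966 bp of exon. Replicates 1, 2 and 3 measured 4.10, 5.76 and 2.04 FPKM in WT and 3.105, 5.597 and 1.68 in KO, on 159 to 469 reads per library. KO was the lower library in each of the 3 pairs, but the spread between title numbers was far larger than the step within a pair. KO minus WT was -0.18 (SE 0.37) without the block and -0.18 (SE 0.07) with it, with an unadjusted p of 0.0432 and an adjusted p of 0.999 by limma with the block. With 1 library left out the estimate without the block ran from -0.51 (without KO replicate 2) to 0.14 (without KO replicate 3), and it was 0.08 without WT replicate 2 and -0.49 without WT replicate 3.

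The serotonin receptors coupled to Gi were led by *Htr1a*, which hyperpolarises neurons through potassium channels. WT held 5.52, 6.46 and 5.54 FPKM of it and KO 6.60, 5.95 and 7.11, higher in KO in 2 of 3 pairs, with a KO minus WT of 0.14 (SE 0.09, limma adjusted p = 1). *Htr1b*, a receptor found on axon terminals, measured 3.89, 4.05 and 1.62 FPKM in WT and 2.75, 4.11 and 1.92 in KO, and thus followed the title number, as *Htr2a* did. *Htr5a* was among the steadiest members, at 4.92 ± 0.16 FPKM in WT and 4.72 ± 0.11 in KO, lower in KO in 3 of 3 pairs by a step of -0.05 (95% interval -0.22 to 0.12). *Htr5b* stood at 2.05 ± 0.25 and 2.28 ± 0.36, higher in KO in 3 of 3 pairs.

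Of the receptors coupled to Gs, *Htr7* stood at 3.86 ± 0.82 FPKM in WT and 3.91 ± 0.20 in KO. *Htr6* stood at 1.76 ± 0.22 and 1.46 ± 0.39, lower in KO in 3 of 3 pairs (KO minus WT -0.17, SE 0.13, limma adjusted p = 1). Its values were 2.01, 1.64 and 1.62 FPKM in WT and 1.90, 1.17 and 1.32 in KO, so the first KO library lay within the WT range. With 1 library left out the *Htr6* estimate ran from -0.29 (without KO replicate 1, unadjusted p 0.0362 by limma) to -0.09 (without KO replicate 2), and none was called. Over all 23 tested members, KO was higher in 3 of 3 pairs for 2, *Htr5b* and *Chrnb2*, where 12.3% of tested genes did so. It was lower in 3 of 3 for 4, *Htr2a*, *Htr5a*, *Htr6* and *Chrna3*, where 9.59% did so. The sum of the 13 serotonin receptor genes was 41.5 ± 7.39 FPKM in WT and 40.1 ± 3.71 in KO, a difference smaller than the spread (exact 2-sided permutation p = 0.8, where 3 against 3 libraries cannot go below 0.1).

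The adrenergic genes were led by *Adra1d*, *Adrb1* and *Adra2a*. *Adra1d*, a Gq-coupled receptor gene, stood at 9.53, 9.73 and 12.1 FPKM in WT and 11.6, 9.46 and 12.9 in KO. The libraries numbered 3 were the highest of each genotype, and the groups overlapped. *Adra2a*, which encodes the main Gi-coupled autoreceptor and cortical receptor for noradrenaline, stood at 8.98 ± 0.69 FPKM in WT and 9.40 ± 1.01 in KO. *Adrb1*, a beta receptor gene coupled to Gs, stood at 9.45 ± 1.02 and 9.19 ± 0.85, and *Adrb3*, another beta receptor gene, averaged 0.596 FPKM. *Adra1b* measured 5.33 ± 0.44 in WT and 4.83 ± 0.42 in KO (KO minus WT -0.12, SE 0.09, limma adjusted p = 1). *Adra2c*, another Gi-coupled receptor gene, was at 5.57 FPKM in WT replicate 3 and between 3.74 and 4.47 in the other 5 libraries. *Adra1a* averaged 1.56 FPKM and followed the title number. The 6 alpha receptor genes summed to 30.8 ± 2.99 FPKM in WT and 31.3 ± 1.97 in KO (exact 2-sided permutation p = 0.9).

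The muscarinic genes made up the largest summed level of the families, 69.4 ± 3.32 FPKM in WT and 70.04 ± 0.242 in KO over 5 genes (exact 2-sided permutation p = 1). *Chrm1*, the main muscarinic receptor of cortical pyramidal cells, varied little: the WT libraries held 36.1, 36.0 and 39.5 FPKM and the KO libraries 38.3, 36.0 and 40.2, with a KO minus WT of 0.04 (95% interval -0.14 to 0.21). *Chrm3*, also Gq-coupled, stood at 14.0, 13.5 and 12.1 in WT and 13.9, 14.5 and 12.0 in KO. *Chrm4*, a Gi-coupled receptor gene that striatal neurons also express strongly, stood at 15.0, 14.3 and 20.4 in WT and 15.4, 16.0 and 16.2 in KO. WT replicate 3 thus stood apart, and the 3 KO libraries fell within the WT range. *Chrm2*, a Gi-coupled receptor gene found on cholinergic terminals and some cortical neurons, averaged 1.73 FPKM and followed the title number. *Chrm5*, with a mean of 0.753 FPKM, was tested only with the filter at 0.1 FPKM and was not called (KO minus WT 0.48, SE 0.30, limma adjusted p = 1).

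In KO replicates 1 and 3, where striatal marker levels were low, *Chrm4* stood at 15.4 and 16.2 FPKM. WT replicates 1 and 3 held 15.0 and 20.4, so KO was slightly higher in number 1 and lower in number 3. The genes that mark cholinergic neurons were also lowest in KO replicates 1 and 3. *Chat*, which encodes the enzyme that makes acetylcholine, had 53, 51 and 41 reads for WT and 5, 35 and 11 for KO. *Slc18a3*, the vesicular acetylcholine transporter gene, had 66, 39 and 81 for WT and 22, 32 and 24 for KO, and *Slc5a7*, the choline transporter gene, had 146, 130 and 100 for WT and 50, 84 and 54 for KO. These reads are not scaled for depth, which averaged 33.2 megareads in WT and 27.0 in KO. In FPKM, *Slc18a3* was at 0.717, 0.589 and 0.987 for WT and 0.346, 0.586 and 0.312 for KO. Its highest value was in WT replicate 3, the WT library with the lowest striatal sum. KO replicate 2 (0.586) lay just under the lowest WT value (0.589), so the groups did not overlap. *Chat* was at 0.497, 0.665 and 0.432 for WT and 0.068, 0.553 and 0.123 for KO. All 3 genes had a mean under 1 FPKM and were left out of the main test. All 10 striatal markers had a lower estimate in KO, and limma called 0 of them, with 4 at an unadjusted p under 0.05. The part of the striatal markers in the cholinergic and *Chrm4* values was not tested.

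**Figure D3:**
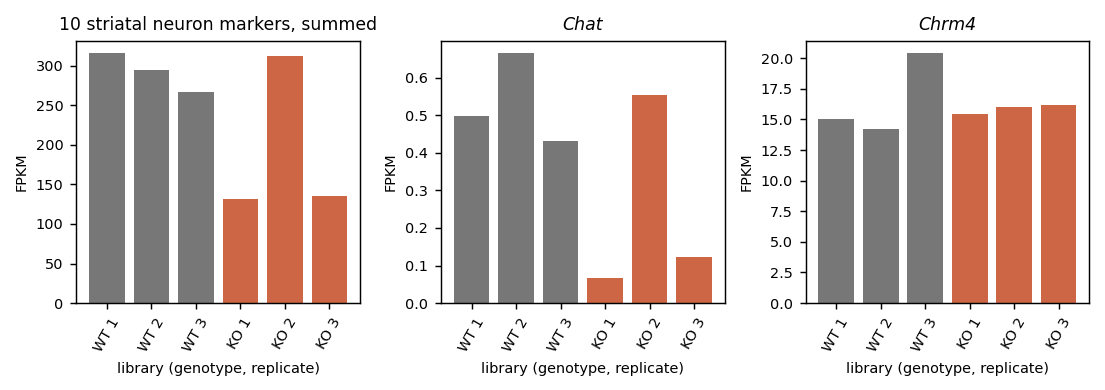
FPKM in each library for the sum of 10 striatal neuron markers, for *Chat* and for *Chrm4*, with WT in grey and KO in orange and each axis starting at 0. The striatal sum and *Chat* are lowest in KO replicates 1 and 3. *Chrm4* is at 15.4 and 16.2 FPKM there and at 15.0 and 20.4 in WT replicates 1 and 3.

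Among the nicotinic subunit genes, *Chrna4* and *Chrnb2* were close to each other in level. *Chrna4* stood at 12.0, 11.6 and 12.7 FPKM in WT and 13.5, 11.7 and 12.7 in KO, and *Chrnb2* at 11.4, 11.5 and 10.4 in WT and 11.5, 11.9 and 11.4 in KO. KO minus WT was 0.05 and 0.06, with 95% intervals of -0.13 to 0.24 and -0.10 to 0.23. *Chrna7*, which forms receptors of its own with high calcium permeability, stood at 5.21, 5.80 and 3.12 FPKM in WT and 5.14, 5.71 and 3.62 in KO, and followed the title number. *Chrna5*, an accessory subunit gene, stood at 1.31 ± 0.39 in WT and 1.502 ± 0.05 in KO, and *Chrna3*, which neighbours it on chromosome 9, at 1.16 ± 0.23 and 1.004 ± 0.195. The 16 nicotinic genes summed to 32.4 ± 1.67 FPKM in WT and 33.4 ± 1.19 in KO (exact 2-sided permutation p = 0.5).

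The 20 members under 1 FPKM were followed by their reads. Among the receptors coupled to G proteins, *Htr4* held 79 to 112 reads per library, *Htr1d* 28 to 101 and *Htr1f* 25 to 70. *Adrb3* and *Chrm5* held 36 to 66 and 21 to 53 reads, and *Adra2b* 5 to 27. *Chrna9*, a gene of cochlear hair cells, and *Chrnd* held 0 reads in each library, and for a gene of 2000 bp, 0 reads allow up to 0.0393 FPKM at the greatest depth and 0.0662 at the least (3 counts as the upper limit, counting error only). *Chrng* held 1 read in WT replicate 2, *Htr3b* 1 in each of WT replicates 1 and 2, and *Chrne* 0 to 3 per library. Of the muscle subunits *Chrna1* and *Chrnb1* were higher, at 15 to 52 and 19 to 36 reads. *Chrna6*, *Chrnb3*, *Chrna2*, *Chrna10* and *Chrnb4* held 1 to 65 reads per library between them. *Htr2b* was the only one of the 20 whose KO and WT values did not overlap in FPKM, at 0.11, 0.107 and 0.076 in KO and 0.063, 0.053 and 0.071 in WT (exact 2-sided permutation p = 0.1, the smallest possible). Its reads did overlap, with 6, 5 and 5 for KO and 5, 3 and 5 for WT, so the separation rests on a few reads divided by unequal depths. Of rows under 1 FPKM with reads, 3.47% were likewise higher in KO without overlap. *Htr2b* shares 252 bp of exon with *Psmd1* on the opposite strand, and the sources used here do not say whether reads were counted by strand. With a filter at 0.1 FPKM and a pseudocount of 0.1, 36 members could be tested and 0 were called by limma, with 0 at an unadjusted p under 0.05, while 0.0737% of 16293 genes were called. In that fit KO minus WT of *Htr1d* was -0.55 (SE 0.33). Of the 20, *Htr1d* and *Chrna1* were lower in KO in 3 of 3 pairs, and *Htr4*, *Chrm5* and *Htr2b* were higher. The share of all rows under 1 FPKM that did so is not given here.

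**Figure D4:**
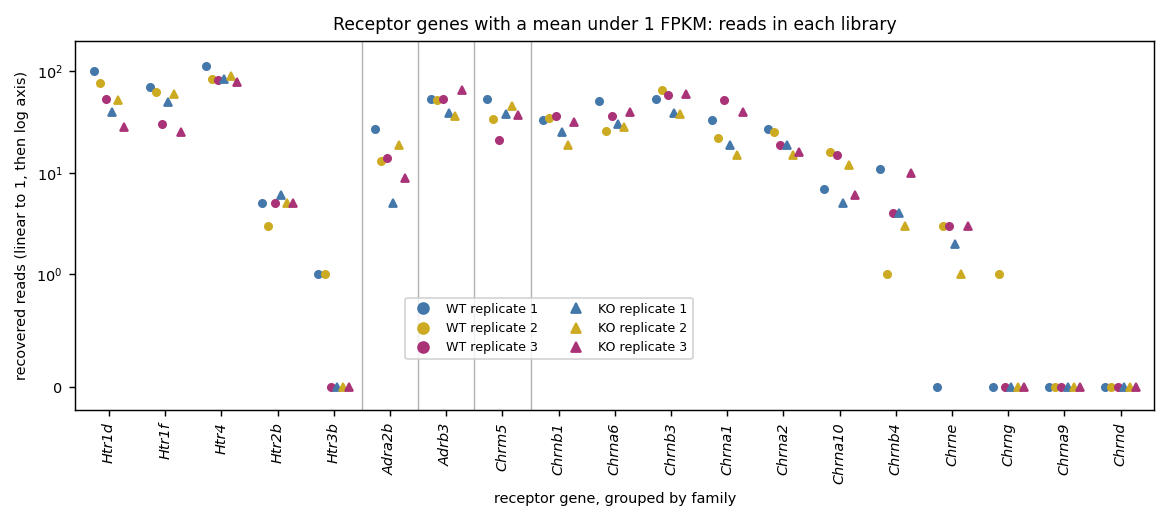
Recovered reads per library for 19 of the 20 receptor genes with a mean under 1 FPKM, on an axis that is linear to 1 and logarithmic above. *Htr4* holds 79 to 112 reads per library, and *Chrna9* and *Chrnd* lie at 0 throughout.

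The receptor genes varied with the title number more than with the genotype. Over the 23 tested members the title number took a median of 65.4% of the variance of log2(FPKM + 1) and the genotype 7.44%, against 77.3% and 3.67% over all tested genes. The title number has more levels than the genotype and takes a larger share even from noise, so part of this gap is built in. A limma F test over the 3 numbers, with genotype as a covariate, was added after the data had been seen. It called 6 of the 23 members (26.1%), where it called 30.6% of the 12863 tested genes, so the share of receptors was near the background. That comparison depended on the libraries and on the filter. Without WT replicate 1 it was 26.1% against 15.9%, without KO replicate 1 30.4% against 16.3%, and without both libraries numbered 2 30.4% against 16.9%. With all libraries and no filter it was 12.2% against 6.81%, and with a filter and pseudocount of 0.1 it was 19.4% against 20.5%. The 6 were *Htr2a*, *Chrm2*, *Adra1a*, *Htr1b*, *Chrna7* and *Adra1d*, with limma adjusted p of 0.0018, 0.00327, 0.00387, 0.00854, 0.00511 and 0.0361. Each number stands for 1 WT and 1 KO library, and the labels do not say what it means. It cannot be told apart from the title code.

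For 5 of the 6, which were picked by the F test on these same values, the order was the same, highest in number 2 and lowest in number 3. Of all 23 tested members, 9 were lowest in number 3, as were 36.9% of all tested genes. The highest level was in number 3 for 7 members and for 34.3% of all tested genes. The share of all tested genes with the full order of the 5 is not given here. *Htr2a* averaged 3.60, 5.68 and 1.86 FPKM in numbers 1, 2 and 3, a ratio of 3.05 between the highest and the lowest. *Chrm2* averaged 1.60, 2.68 and 0.912 FPKM (ratio 2.94), with WT and KO at 2.78 and 2.59 in number 2 and at 0.883 and 0.941 in number 3. *Adra1a* averaged 1.41, 2.33 and 0.934 (ratio 2.498). *Htr1b* averaged 3.32, 4.08 and 1.77 (ratio 2.31), and *Chrna7* 5.18, 5.75 and 3.37 (ratio 1.71). *Adra1d* had the opposite order, with 10.6, 9.60 and 12.5 FPKM. *Htr1f* and *Htr1d*, which are under 1 FPKM, stood in the order of the 5, at 0.74, 0.99 and 0.33 FPKM and at 0.75, 0.91 and 0.44. With a filter and pseudocount of 0.1 the F test called both (limma adjusted p 0.0143 and 0.0401), and without a filter it called *Htr1f* (0.0339) and not *Htr1d* (0.0565). It called 19.4% of members and 20.5% of all genes with that filter, and 12.2% and 6.81% without one. *Htr4*, *Chrm5*, *Chrna2* and *Adra2b* stood in the same order and were called under neither. The tested *Chrm3* and *Chrnb2* shared this order and were not called in the main fit, while *Adrb3* and *Chrna1* were highest in number 3. By contrast *Htr1a* averaged 6.06, 6.20 and 6.32 FPKM and *Htr5a* 4.69, 4.86 and 4.93, with F test adjusted p of 0.912 and 0.733 by limma.

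**Figure D5:**
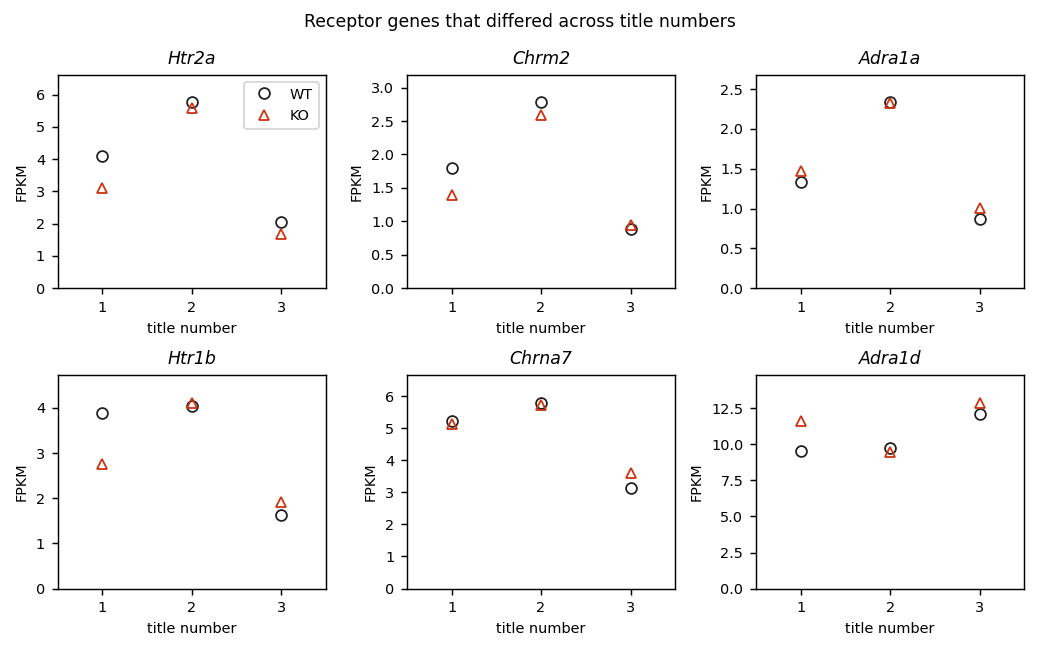
FPKM of the 6 receptor genes called across title numbers, plotted by title number with WT as circles and KO as triangles, each axis starting at 0. WT and KO are furthest apart in number 1 for *Htr2a*, *Chrm2*, *Htr1b* and *Adra1d* and in number 3 for *Chrna7* and *Adra1a* (on the log2 scale), and *Htr2a* runs from 1.86 FPKM on average in number 3 to 5.68 in number 2.

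The calls of *Htr2a*, *Chrm2* and *Adra1a* held in all 15 settings of the F test. Those of *Chrna7*, *Htr1b* and *Adra1d* held in 14, 13 and 10. *Chrna7* and *Htr1b* were lost without both libraries numbered 3 (*Htr1b* also without a filter), and *Adra1d* without either or both of them and under both wider filters. With single libraries or pairs of one number left out, 4 to 9 members were called. The 4 were 17.4% of tested members, against 21.1% of all tested genes, without both libraries numbered 3. The 9 were 39.1% against 28.9%, without KO replicate 3. Exons of other genes overlap some of these members on the opposite strand, by 852 bp for *Htr1b* (the antisense RNA *D430036J16Rik*), 142 bp for *Chrm2* and 147 bp for *Adra1d*, so their values are uncertain. Other markers also moved with the number: the 10 interneuron markers summed to 868 to 953 FPKM in the libraries numbered 3 and 755 to 804 in the other 4, but only 6 of the 10 were higher in number 3 than in number 2, and 4 were lower. The F test called 7 of these 10, 6 of 10 excitatory neuron, 8 of 8 mature oligodendrocyte, 5 of 8 astrocyte and 4 of 6 thalamic markers, against 30.6% of all tested genes. It called 0 of 5 oligodendrocyte precursor markers, 1 of 10 striatal markers and 1 of 6 each of microglial, endothelial and meningeal markers. Their part in the receptor values was not tested.

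The promoters of 3 members that separated by number and of a steady one, *Chrna4*, are shown to let their sequences be compared. They are the RefSeq windows from 250 bases before to 50 after the start site on GRCm38.p6 (mm10 coordinates), 5′ to 3′ in the direction of the gene, with GC boxes (GGGCGG or its reverse complement CCGCCC) in capitals. *Htr2a* is on the plus strand at chr14:74640624-74640923, *Chrm2* on the plus strand at chr6:36387834-36388133, *Chrna7* on the minus strand at chr7:63212477-63212776 and *Chrna4* on the minus strand at chr2:181039128-181039427.
Htr2a: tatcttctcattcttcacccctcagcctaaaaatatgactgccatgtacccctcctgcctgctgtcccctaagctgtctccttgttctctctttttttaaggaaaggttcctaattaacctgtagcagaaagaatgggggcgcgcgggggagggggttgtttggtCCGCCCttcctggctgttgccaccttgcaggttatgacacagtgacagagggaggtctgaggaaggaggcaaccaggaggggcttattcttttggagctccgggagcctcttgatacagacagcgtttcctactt
Chrm2: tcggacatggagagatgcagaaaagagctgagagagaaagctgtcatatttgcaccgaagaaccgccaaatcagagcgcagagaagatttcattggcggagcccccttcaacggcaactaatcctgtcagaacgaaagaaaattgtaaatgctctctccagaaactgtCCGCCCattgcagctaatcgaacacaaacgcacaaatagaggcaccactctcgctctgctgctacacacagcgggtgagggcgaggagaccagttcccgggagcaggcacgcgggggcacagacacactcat
Chrna7: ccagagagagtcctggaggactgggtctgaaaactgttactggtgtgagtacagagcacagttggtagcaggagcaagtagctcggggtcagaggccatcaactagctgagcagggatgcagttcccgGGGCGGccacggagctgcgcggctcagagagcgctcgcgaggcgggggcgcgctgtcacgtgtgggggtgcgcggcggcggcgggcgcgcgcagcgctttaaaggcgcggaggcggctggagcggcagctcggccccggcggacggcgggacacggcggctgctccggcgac
Chrna4: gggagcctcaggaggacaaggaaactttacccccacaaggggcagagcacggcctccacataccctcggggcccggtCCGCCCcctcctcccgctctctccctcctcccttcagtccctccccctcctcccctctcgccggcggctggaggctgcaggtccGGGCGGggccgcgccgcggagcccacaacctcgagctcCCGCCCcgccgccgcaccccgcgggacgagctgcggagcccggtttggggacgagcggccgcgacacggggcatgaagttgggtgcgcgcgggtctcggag
These windows hold 6, 16, 35 and 33 CG dinucleotides and 1, 1, 1 and 3 GC boxes, so the 3 shown that separated by number differed in CG content. Of the 43 members, 32 had a promoter in the table. A GC box stood in 15 of the 32 (46.9%) and in 35.7% of all 32851 windows, a TATA box (TATAAA, either strand) in 6.25% and 13.6%, an E-box (CACGTG) in 9.38% and 7.15%, and the cAMP response element TGACGTCA in 0 and 1.79%. The median number of CG dinucleotides was 14 in the 19 members of 1 FPKM or more and 6 in the 13 below, against 7 over all windows. Such matches describe letters only.

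Other genes of these transmitter systems gave no call either. Of 85 tested genes in 10 lists, covering transmitter metabolism, nicotinic chaperones, G proteins, effectors and target channels, 0 were called by limma with or without the block, with 0 at an unadjusted p under 0.05. With the block 9 of the 85 (10.6%) had such a p, against 3.91% of all tested genes. There were 40 estimates higher and 45 lower, with a median of -0.0014. In transmitter metabolism, 10 of 20 genes were tested, 2 with a higher and 8 with a lower estimate. *Ddc*, which encodes the decarboxylase of serotonin and dopamine synthesis, averaged 3.73 ± 0.04 FPKM for WT and 3.27 ± 0.93 for KO, and *Slc22a3*, a monoamine transporter gene, at 1.55 ± 0.27 and 1.30 ± 0.32. *Ache*, the acetylcholinesterase gene, reached 29.9 to 38.8 FPKM. *Slc6a4*, the serotonin transporter gene of raphe neurons, held 0 to 6 reads per library. Of the other serotonin neuron markers, *Fev* held 0 to 1, but *Tph2* averaged 1.14 FPKM on 66 to 119 reads.

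Of the 10 tested nicotinic chaperone and Ly6 genes, 4 estimates were higher and 6 lower. *Lynx1*, a brake on nicotinic receptors in visual cortex, stood at 104 to 117 FPKM. *Prima1*, which anchors acetylcholinesterase, averaged 1.56 ± 0.52 FPKM for WT and 1.17 ± 0.77 for KO, and *Ly6g6e* at 1.72 ± 0.19 and 1.504 ± 0.23. Of 12 regulators of G protein signalling, 11 estimates were lower, among them *Rgs20* (19.2 ± 0.40 and 17.4 ± 1.63 FPKM) and *Rgs2* (20.65 ± 1.81 and 18.6 ± 0.97), with a list median of -0.04. Of the 9 adenylyl cyclases 7 were higher (*Adcy8* 9.15 ± 0.48 and 10.2 ± 1.29) and 2 lower. *Adcy5*, the main striatal cyclase gene, was one of these (25.3 ± 4.17 and 21.5 ± 5.73), as was *Gnal*, the striatal G protein alpha gene, among 11 such genes of which 6 were higher and 5 lower (43.3 ± 6.88 and 38.2 ± 6.69). In KO replicates 1 and 3, where the striatal markers were lowest, *Adcy5* stood at 19.1 and 17.3 FPKM and *Gnal* at 39.5 and 30.9. WT replicate 3, with a striatal sum of 267 FPKM, held 20.6 and 36.1, so *Gnal* was lower there than in KO replicate 1. Both genes were called across title numbers (limma adjusted p 0.0136 and 0.0156), and the part of the striatal markers was not tested.

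The remaining lists were close between genotypes. Of 8 target channel genes 5 were higher and 3 lower (*Kcnj9* 0.13 for KO minus WT), of 14 kinase, phosphodiesterase and calcium effector genes 9 and 5 (*Prkar2b* -0.09), and of 6 receptor kinase and arrestin genes 4 and 2 (*Arrb1* 0.05, *Arrb2* -0.04). *Gna13*, a G protein alpha gene, was at 0.05. Of 3 phospholipase C beta genes 1 was higher and 2 lower (*Plcb1* -0.04, *Plcb3* 0.01), and of the 2 partner protein genes *Mpdz* was at 0.03 and *S100a10* at -0.0014. Across title numbers the F test called 35 of the 85 genes (41.2%), against 30.6% of all tested genes.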

How the data were processed

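RNA from visual cortex was sequenced in 6 libraries, 3 KO and 3 WT, with a stranded mRNA kit per the labels' protocols. The authors deposited 1 table of FPKM values, counted over exons with transcripts condensed to 1 row per gene on mm10, per the file headers. STAR 2.4.0k, HOMER 4.8.3 and FastQC are named in the submitters' processing notes. The command in the header names 12 libraries, and the 6 without a column are not analysed here. Since that command sets no strand option, genes that overlap on opposite strands have uncertain values.

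Library totals were recovered from the 1-read steps of the FPKM values: with the best total, 100.0% of 4897 to 7147 values per library (under 200 reads, in genes short enough for rounding not to hide a step) were whole within 0.1 read. Reads of longer genes are rounded estimates, and intervals and floors cover counting error only. The test was limma 3.58.1 (R 4.3.3) with an intensity trend on log2(FPKM + 1), 2-sided, on 12863 genes averaging at least 1 FPKM, and the threshold was a Benjamini-Hochberg adjusted p of 0.05. Variance shares, sums and figures were made in Python 3.11.15 (scipy 1.17.1, pandas 2.3.3, matplotlib 3.10.9, numpy 2.4.6).

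Libraries with the same title number deviated together, with correlations of 0.43, 0.71 and 0.67 for numbers 1, 2 and 3 and -0.61 to -0.06 otherwise, so the number was also fitted as a replicate block. A chi-square comparison of recovered reads gave at least 2.72 per degree of freedom for each pair, so none differed by as little as sampling noise. In data simulated with 50 genes per fold, KO against WT recovered 0, 25, 46 and 50 of the genes changed by 1.25, 1.5, 2 and 4 times among 12863, with 0 false calls. With the block it recovered 22, 48, 50 and 50 with 9 false calls, and the F test over numbers 4, 40, 50 and 50 with 5. For the F test only the changed genes carried a number effect, a shift in number 3. That setting is unlike the data, where 30.6% of tested genes were called.

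The members and lists were chosen with earlier results of these data known. Named were *Chrdl1*, members averaging at least 1 FPKM, others without overlap, and the 2 genes with the smallest unadjusted p from each pathway list. Other names were chosen after their values were seen. Some genes that this rule names are not reported here. Marker lists of 16 cell types or regions were summed per library and none held a gene called for KO against WT. Those that bear on a receptor value are given. Alternatives were a pseudocount of 0.1, no filter, a filter at 0.1 FPKM, the block, quantile normalization, limma-voom with TMM factors on recovered reads, and fits without single libraries or title numbers.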

Additional observations from a re-analysis of the deposited data

How the results depend on the processing

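No receptor gene and no pathway gene was called for KO against WT under any of the 16 alternatives. In these 367 values the smallest limma adjusted p of a receptor gene was 0.999. The estimates of 13 of the 23 receptor genes changed sign under at least 1 alternative. Over all genes, where 1 was called, 2 were called with a pseudocount of 0.1, 6 without a filter, 12 with a filter and pseudocount of 0.1, and 2 by limma-voom with the replicate block. With the replicate block alone the count was 1, and the block changed no call of a receptor or pathway gene. Leaving out libraries gave 0 to 4, with 4 without KO replicate 2 and 0 without both libraries numbered 1 or both numbered 2, where *Chrdl1* itself was not called (limma adjusted p 0.267 and 0.0804). Fewer libraries were fitted there. Across title numbers 3936 genes were called, against 1347 without a filter (the cause was not tested) and 2042 to 3888 with libraries left out (2042 without WT replicate 1, 2097 without KO replicate 1, 2160 without both numbered 2), where fewer libraries were fitted. Depth limits the members under 1 FPKM, which held at most 112 reads in a library.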
